A study of Mus musculus with 4 samples.

Results

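ADAM, ADAMTS and ADAMTS-like genes encode a family of metalloproteases and related proteins that act at the cell surface and in the extracellular matrix. They were followed across 4 RNA sequencing libraries of cultured mouse hair follicle mesenchymal cells. Members were taken by name from the count table, as every row whose gene symbol is Adam, Adamts or Adamtsl followed by a number. For Adam, a letter after the number was also allowed, as in Adam1a. The rule found 57 genes among 51826 rows, of which 33 averaged 10 or more raw counts per library and are called expressed here. The expressed members comprised 16 of 33 ADAM, 13 of 19 ADAMTS and 4 of 5 ADAMTS-like genes, and they belonged to a background of 16734 genes that passed the same minimum.

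Dermal papilla cells (DPCs) come from the mesenchymal cluster at the base of the hair bulb, and dermal sheath cells (DSCs) from the connective tissue layer around the follicle. Both were grown from whisker follicles of 5- to 6-week-old C57BL/6J mice that carried an EGFP transgene, whereas the labels give the genotype as WT. DPCs and DSCs were each sequenced at passage 3 (low passage) and at passage 9 (high passage), with 1 library for every combination and no further treatment, and the number of animals behind a culture is not given in the sources used here. No group had a replicate, so no difference below has a replicate check, and passage cannot be told apart from any difference in when a library was made.

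Where 4 values follow each other, those of DPCs come before those of DSCs, and passage 3 comes before passage 9 within each cell type. Total counts ranged from 34981284 to 47604059 per library. Keratinocyte markers Krt5, Krt14, Krt1 and Cdh1 and melanocyte markers Tyr, Dct and Mlana were at 0 in every library. The other keratinocyte markers were low, with Krt10 at 33 to 61 counts, Trp63 at 10 to 35 and Epcam at 4 or fewer. The melanocyte list summed to 11.2 and 28.3 CPM in DPCs and 12.3 and 13.0 CPM in DSCs, mostly from Mitf (394, 980, 435 and 544 counts), with Pmel at 17 to 47 counts. Of the sheath markers, Acta2 had 262118 and 67135 counts in DPCs and 217199 and 197315 in DSCs, so Acta2 did not mark the sheath libraries apart. Tagln had 69654, 21597, 60254 and 65077 counts, and Myh11 had 2882, 168, 1063 and 3160. Itga8 was higher at passage 9 in both cell types, with 6837, 34714, 1674 and 23287 counts. The sheath list summed to 9280 and 3445 CPM in DPCs and to 7389 and 6338 CPM in DSCs. Of the papilla markers, Sox2 was higher in DPCs (1677 and 1491 counts) than in DSCs (269 and 178), while Alpl, Lepr and Corin had at most 23 counts in any library. Lef1 had 508, 2, 101 and 55 counts. Ncam1 went the other way, with 3642 and 1673 counts in DPCs against 11755 and 15584 in DSCs, and Vcan had 4134 and 3447 against 5272 and 2913. The 7 papilla markers summed to 271 and 185 CPM in DPCs and to 460 and 411 CPM in DSCs, so the list as a whole did not mark the DPC libraries.

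ADAM proteins are membrane-anchored, and the catalytically active ones cleave other membrane proteins near the cell surface, which releases growth factors, cytokines and the extracellular parts of receptors. ADAMTS proteases are secreted and bind the matrix, where subgroups cleave proteoglycans, trim procollagens or bind fibrillin, and ADAMTS-like proteins share their matrix-binding modules but lack the protease domain. In skin, versican turnover, collagen maturation and Notch and EGF receptor signalling all involve members of the family. A search of translated reference coding sequences found the zinc-binding motif of these proteases in 23 of the 33 expressed members. The 10 without it were the 4 ADAMTS-like genes together with Adam4, Adam5, Adam11, Adam22, Adam23 and Adam32.

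Reference promoter sequence was matched for 18 of the 33 expressed members. The 250 bases before the start are shown for 4 genes that the results turn on, from RefSeq on build GRCm38.p6 and read 5′ to 3′ on the gene's strand. Adamts12 and Adam19 fell with passage in DPCs, Adamts3 rose in DPCs from 0 counts, and Adamtsl3 differed most between the cell types among members without a count of 0 in the pair compared. In the deposited table the genes span chr15:11064790-11346867 (Adamts12), chr11:46055992-46147343 (Adam19), chr5:89677087-89883334 (Adamts3) and chr7:82335694-82614450 (Adamtsl3). Capitals mark letters that match TGANTCA (the AP-1 motif), CTTTGAT (TCF/LEF), GGAATG (TEAD) or GGGCGG (GC box) on either strand.
Adamts12, chr15:11064523-11064772, plus strand: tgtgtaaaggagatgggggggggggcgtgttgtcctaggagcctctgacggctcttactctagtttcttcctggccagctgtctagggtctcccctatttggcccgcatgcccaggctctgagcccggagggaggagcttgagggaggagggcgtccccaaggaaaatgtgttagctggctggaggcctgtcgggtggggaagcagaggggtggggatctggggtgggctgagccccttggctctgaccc
Adam19, chr11:46055734-46055983, plus strand: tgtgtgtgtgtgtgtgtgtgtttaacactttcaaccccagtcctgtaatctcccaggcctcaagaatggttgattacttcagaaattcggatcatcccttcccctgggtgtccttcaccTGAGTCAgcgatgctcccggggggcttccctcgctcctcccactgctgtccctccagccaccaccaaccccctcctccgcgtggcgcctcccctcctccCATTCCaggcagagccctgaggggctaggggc
Adamts3, chr5:89883335-89883584, minus strand: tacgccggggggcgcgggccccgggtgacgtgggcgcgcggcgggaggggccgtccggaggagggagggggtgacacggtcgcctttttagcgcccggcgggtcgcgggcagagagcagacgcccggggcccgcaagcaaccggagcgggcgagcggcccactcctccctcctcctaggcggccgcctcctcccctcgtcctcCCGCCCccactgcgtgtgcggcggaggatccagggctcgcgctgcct
Adamtsl3, chr7:82335444-82335693, plus strand: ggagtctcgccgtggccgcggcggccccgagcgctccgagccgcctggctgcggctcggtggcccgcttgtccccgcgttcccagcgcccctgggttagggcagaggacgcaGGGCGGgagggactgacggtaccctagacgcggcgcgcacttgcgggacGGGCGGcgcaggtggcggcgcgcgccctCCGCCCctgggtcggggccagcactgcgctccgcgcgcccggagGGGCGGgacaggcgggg

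The Adam19 window held an AP-1 match 131 bases and a TEAD match 32 bases before the start, and it was the only member window with either. The table gave 3 starts for Adam19, and the other two had neither motif. Among 32851 promoter windows of the same length, 6.75% held the AP-1 letters, 12.6% the TEAD letters, 3.21% the TCF/LEF letters and 32.7% the GC box. No member window held the TCF/LEF letters, and 12 of 18 members held a GC box, with 4 in the Adamtsl3 window, 1 in the Adamts3 window and none in the Adamts12 window. These matches are descriptions of the letters in these windows and not of bound sites.

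The first question was which members dominate these cells. Levels of different genes were compared with the deposited FPKM, which is scaled by transcript length. The summed FPKM of the 33 expressed members was 489 at passage 3 and 419 at passage 9 in DPCs, and 450 and 400 in DSCs at those passages. Adamts1 ranked first by mean FPKM (77.3), followed by Adam9 (63.7), Adam15 (61.6), Adam10 (42.3) and Adamts2 (24.2). The 5 highest members of each library took 61.5% and 75.2% of the family sum in low- and high-passage DPCs and 56.8% and 60.7% in low- and high-passage DSCs. Adamts1 ranked first in both DPC libraries, Adam9 in low-passage DSCs and Adam15 in high-passage DSCs.

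**Figure D1:**
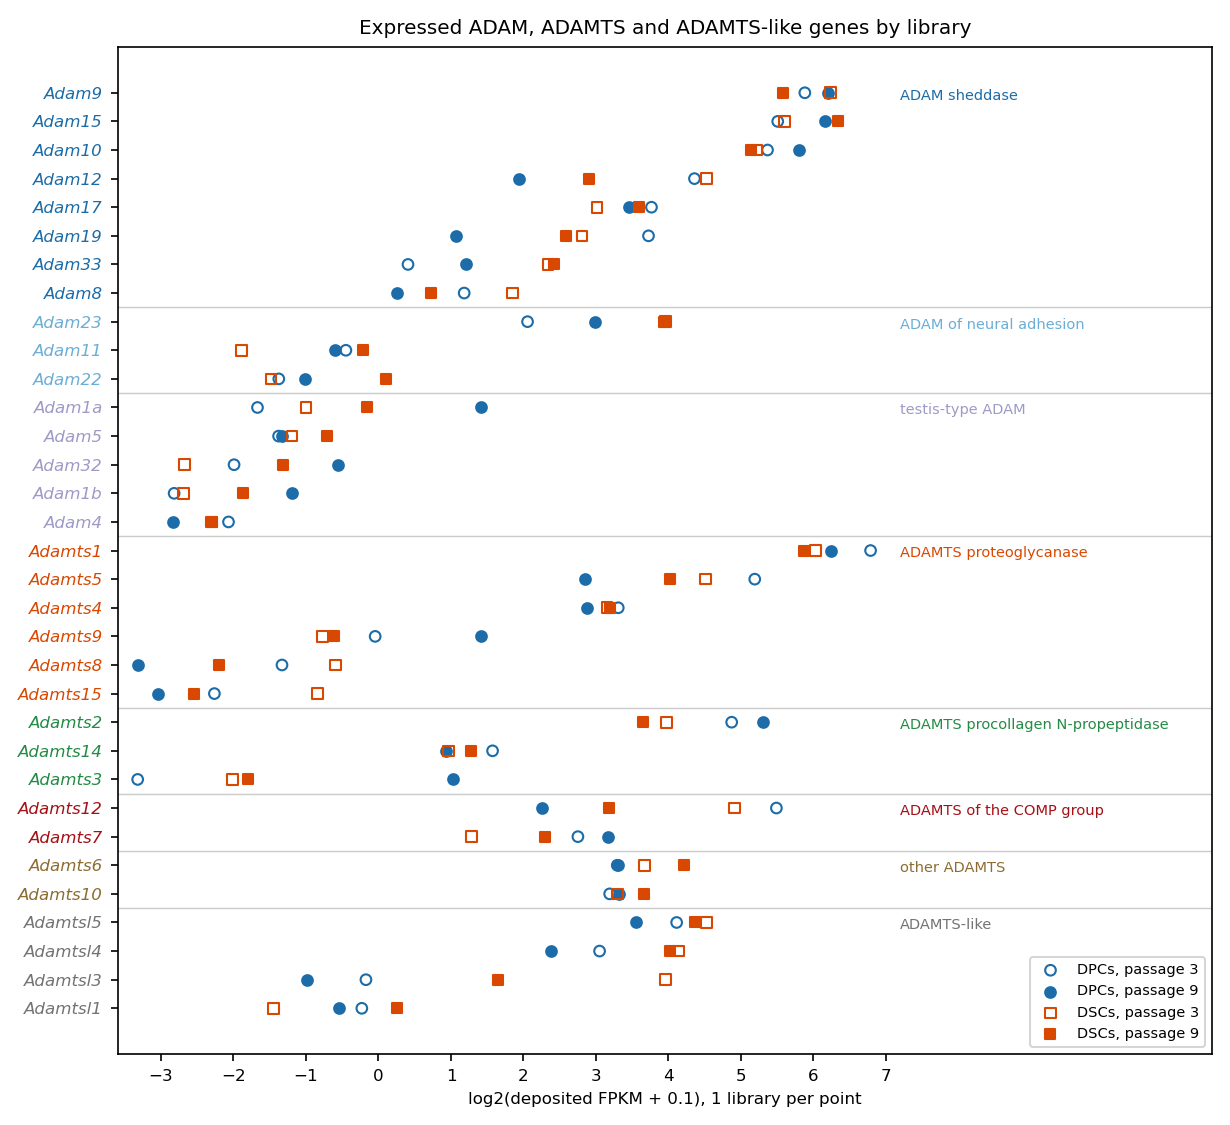
Level of the 33 expressed members, as log2 of the deposited FPKM plus 0.1, grouped by role and ordered by mean within a role, with 1 point per library (circles DPCs, squares DSCs, open passage 3, filled passage 9). Adam9, Adam10, Adam15 and Adamts1 stay at the right in all libraries, while Adamts5, Adam12 and Adamts12 have their filled DPC point well left of the open one.

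Sums by role divided differently in the libraries. The proteoglycanase group summed to 158 and 92.5 FPKM in low- and high-passage DPCs and to 98.1 and 84.2 in low- and high-passage DSCs. The COMP group summed to 51.5 and 13.5 FPKM in DPCs and to 32.4 and 13.7 in DSCs. The sheddase sum moved little, at 196 and 220 FPKM in DPCs and 207 and 196 in DSCs. ADAMTS-like genes summed to 26.9 and 17.7 FPKM in DPCs and to 56.2 and 40.7 in DSCs. Members without the zinc-binding motif made up 6.64% and 6.53% of the family FPKM in low- and high-passage DPCs, and 16.1% and 14.6% in the DSC libraries.

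**Figure D2:**
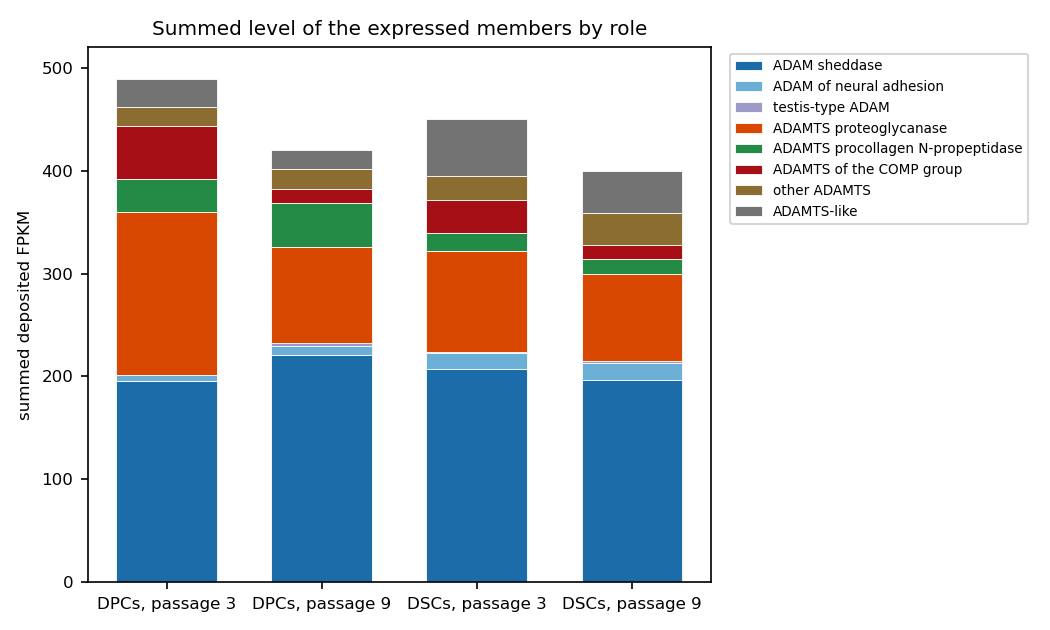
Summed deposited FPKM of the expressed members in each library, stacked by role, from 0. The COMP group shrinks from 51.5 to 13.5 in DPCs and from 32.4 to 13.7 in DSCs, and the ADAMTS-like segment is larger in both DSC libraries than in either DPC library.

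The main comparison asked how the members differed between passage 9 and passage 3. Fold changes are differences of log2 CPM (counts scaled to a common library size) after TMM scaling with a prior count of 2, and a member was called at a difference of at least 2 (4-fold). The 95% interval in brackets is an exact counting interval that compares 2 libraries, not 2 conditions. In DPCs, 5 of 33 members were called lower, beside 4.36% of all tested genes, and 3 were called higher, beside 5.58%. In DSCs, 3 were called lower, beside 1.16% of tested genes, and 0 higher, beside 2.67%. Adamts8 alone was called lower in both cell types, which 0.508% of tested genes were, and no member was called higher in both, which 1.27% were. With counts this small, 1 member more or fewer moves the share of members by several percentage points.

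The median log2 change of the members was 0.01 in DPCs and 0.06 in DSCs, against 0.03 and 0.00 over all tested genes. The DPC median depended on the minimum and the unit. It was -0.33 without a minimum, -0.27 with a minimum of 100 and -0.16 with the deposited FPKM, against 0.00, 0.03 and 0.02 over all genes. In DPCs 17 members lay above 0 and 16 below, and the same split was found in DSCs. The sign of the change was the same in both cell types for 25 of 33 members (75.8%), compared with 70.4% of all tested genes. The counting intervals of the 2 cell types lay on opposite sides of 0 for 6 of 33 members, beside 11.6% of tested genes. Across members, Spearman's rho between the change in DPCs and that in DSCs was 0.64, and it was 0.52 over all tested genes, where genes are not independent replicates.

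**Figure D3:**
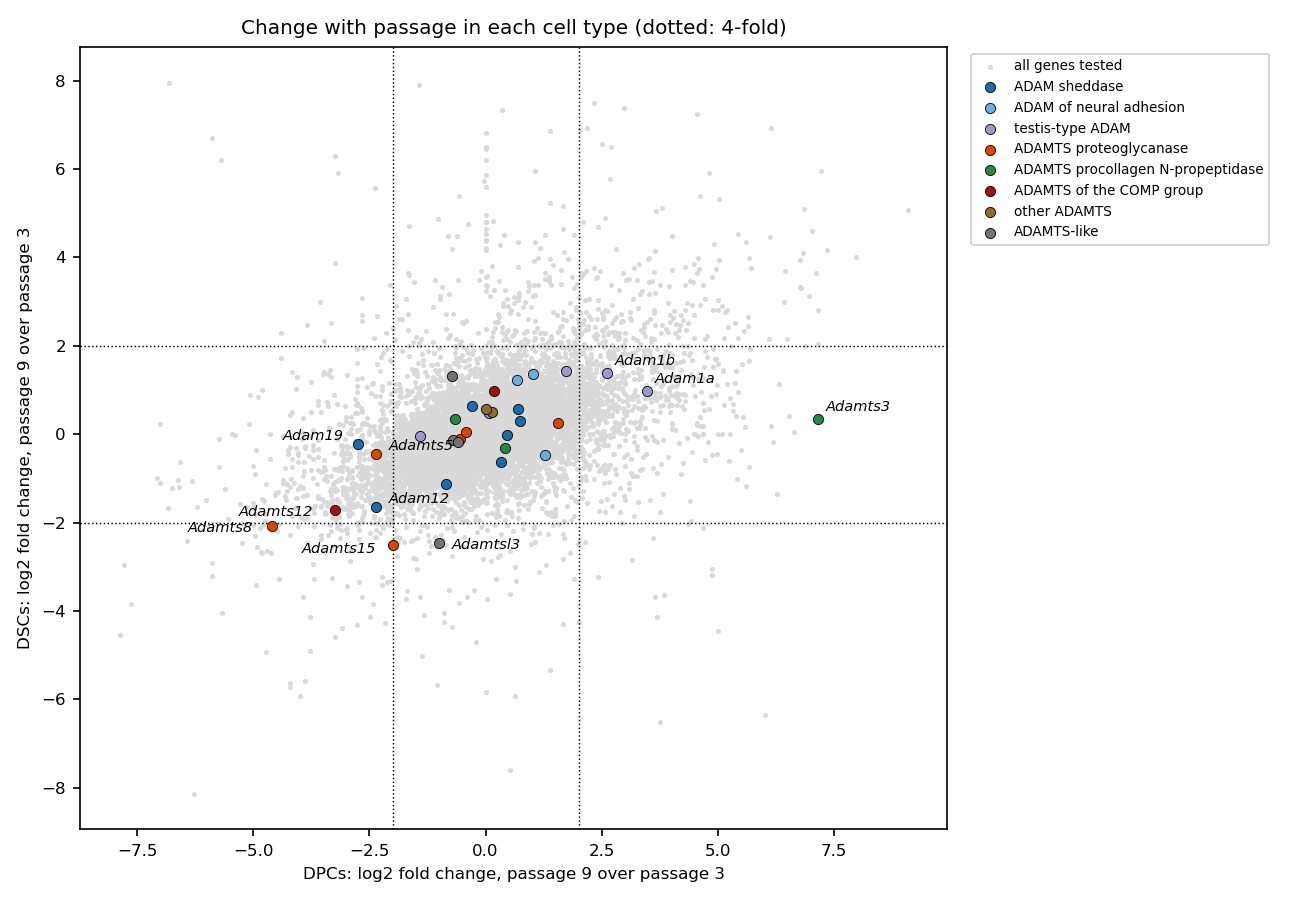
Change with passage in DPCs (x axis) and in DSCs (y axis), each as log2 fold change of passage 9 over passage 3. Grey points are all 16734 tested genes, coloured points the 33 members by role, and dotted lines the 4-fold limits. Adamts8, Adamts12, Adamts15 and Adam12 lie at the lower left, and Adamts3 at the far right, where the position of Adamts3 and Adamts8 on the x axis depends on the prior count because 1 DPC library had 0 counts.

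Among the sheddases, Adam12 and Adam19 fell past 4-fold in DPCs. Adam12, which cleaves growth factor precursors and IGF-binding proteins, had 5465 counts at passage 3 and 1041 at passage 9 in DPCs, and 7196 and 2746 in DSCs at those passages. High-passage counts were the lower ones in both cell types, with log2 changes of -2.35 (-2.45 to -2.26) in DPCs and -1.65 (-1.72 to -1.59) in DSCs. Adam19, known for its part in heart development and for neuregulin shedding, had 3250, 469, 1891 and 1953 counts in the same order of libraries. High-passage DPCs stood below the other libraries, with a log2 change of -2.75 (-2.90 to -2.62) in DPCs against -0.22 (-0.31 to -0.13) in DSCs. About 10.1% of the exonic bases of Adam19 are shared with the genes Gm16033 and Gm16034 on the other strand, which had at most 11 counts in any library, and whether the counting used strand is not given in the sources used here.

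The most abundant sheddases moved less than 2-fold in either cell type. Adam10, the protease that cleaves Notch receptors and cadherins, had 7277, 9791, 7163 and 8448 counts, with log2 changes of 0.46 in DPCs and -0.03 in DSCs. Adam9, a widely expressed ADAM, had 9336, 11465, 12924 and 10078 counts, with log2 changes of 0.33 in DPCs and -0.62 in DSCs. Adam15, which carries an integrin-binding sequence, had 4521, 7151, 5475 and 9795 counts and was higher at passage 9 in both, by 0.70 and 0.57 on the log2 scale. It shares 20.6% of its exonic bases with a gene on the other strand, which had between 47 and 109 counts. Adam17, the protease that releases TNF and several EGF receptor ligands, changed by -0.30 in DPCs and 0.63 in DSCs on the log2 scale.

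Adam33 and Adam8 complete the sheddases. Adam33, a gene linked to airway smooth muscle, had 103, 168, 442 and 650 counts, with both DSC libraries above both DPC libraries. Its log2 change with passage was 0.73 in DPCs and 0.29 in DSCs. Adam8, an ADAM best known in leukocytes, had log2 changes of -0.86 in DPCs and -1.12 in DSCs. All 5 immune markers had fewer counts at passage 9 in both cell types, with summed levels of 113 and 63.7 CPM in DPCs and 164 and 92.2 CPM in DSCs and none at 0. Ptprc, the pan-leukocyte marker, had 70, 22, 116 and 18 counts. The part of such cells in the Adam8 values was not tested, and fewer cells of a type and less RNA per cell cannot be told apart in bulk libraries.

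The proteoglycanases, which cleave versican and aggrecan, held 3 of the members that were called lower with passage. Adamts5, the main aggrecanase of mouse cartilage, had 11801 counts at passage 3 and 2257 at passage 9 in DPCs, and 8029 and 7041 in DSCs at those passages. The high-passage DPC library stood below the other three, with a log2 change of -2.35 (-2.42 to -2.29) in DPCs and -0.45 (-0.50 to -0.41) in DSCs. Adamts8, a less abundant member of the subgroup, had 44, 0, 90 and 24 counts, so that the low-passage libraries were higher in both cell types, and 10.6% of its exonic bases are shared with a gene on the other strand. Its CPM was at least 14.3-fold lower in high-passage than in low-passage DPCs, against a floor of 3 counts, and its log2 change in DSCs was -2.07 (-2.89 to -1.51). That DSC value ranged from -2.15 to -1.60 over 7 processing alternatives and passed 4-fold in 5 of them.

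Adamts15 showed the same order of libraries at low counts. This proteoglycanase had 26, 5, 118 and 23 counts, with log2 changes of -1.99 (-4.08 to -0.94) in DPCs, just short of 4-fold, and -2.51 (-3.34 to -1.97) in DSCs. The 4 endothelial markers summed to 2.42 and 0.11 CPM in low- and high-passage DPCs and to 5.48 and 0.99 CPM in DSCs. The part of endothelial cells in the values of Adamts8 and Adamts15 was not tested. Adamts15 and Adamts8 are neighbours on chromosome 9, with 20.1 kb between them. Adamts1, a protease of ovulation and vascular remodelling and the most abundant member, lies 55.1 kb from Adamts5 on chromosome 16. Adamts1 had 21178, 14187, 13601 and 15175 counts and log2 changes of -0.54 (-0.57 to -0.51) in DPCs and -0.11 (-0.14 to -0.07) in DSCs, well short of the change of Adamts5 in DPCs. Adamts4, an inducible aggrecanase, changed by -0.42 and 0.06, and Adamts9, which cleaves versican during development, by 1.57 and 0.26 in DPCs and DSCs on the log2 scale. The genes A730049H05Rik and Gm15737 on the other strand, with at most 8 counts in any library, share 12.0% of the exonic bases of Adamts9.

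Of the COMP group, the proteases that cleave cartilage oligomeric matrix protein, Adamts12 showed the largest fall among members without a count of 0. Its counts were 11160 at passage 3 and 1143 at passage 9 in DPCs, and 8175 and 2982 in DSCs at those passages. Both high-passage libraries lay below both low-passage libraries, with log2 changes of -3.25 (-3.34 to -3.16) in DPCs and -1.72 (-1.78 to -1.66) in DSCs. In FPKM, Adamts12 took 9.17% of the family sum in low-passage DPCs and 1.12% in high-passage DPCs. The other member of the group, Adamts7, changed by 0.17 in DPCs and 0.99 in DSCs on the log2 scale.

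The procollagen N-propeptidases remove the amino-terminal propeptides of fibrillar collagens. Adamts2, the main enzyme of this kind in skin, had 8285 counts at passage 3 and 10714 at passage 9 in DPCs, and 4789 and 4666 in DSCs at those passages. Its log2 change was 0.41 in DPCs and -0.30 in DSCs, and both DPC libraries were above both DSC libraries. Adamts3, which also activates the lymphatic growth factor VEGF-C, had 0, 259, 26 and 40 counts. High-passage DPCs stood above the other libraries, at least 88.5-fold over low-passage DPCs against the floor of 3 counts, while the log2 change in DSCs was 0.33 (-0.39 to 1.13). Adamts14 changed by -0.66 and 0.35 on the log2 scale.

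Adamts6 and Adamts10, proteases that bind fibrillin microfibrils, stayed within 2-fold with passage. Adamts6 had 1867, 1838, 2664 and 4755 counts, with log2 changes of 0.01 (-0.08 to 0.11) in DPCs and 0.57 (0.50 to 0.64) in DSCs. Adamts10 changed by 0.13 in DPCs and 0.51 in DSCs. For Adamts6 in DPCs the sign turned to -0.01 when libraries were scaled by total counts.

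All 4 expressed ADAMTS-like genes were lower in high- than in low-passage DPCs, with a median log2 change of -0.72 and none past 4-fold. Adamtsl3, a matrix glycoprotein, had 224, 108, 4665 and 1011 counts. It was lower at passage 9 in both cell types, with a log2 change of -1.0 (-1.36 to -0.68) for DPCs and one of -2.47 (-2.57 to -2.37), past 4-fold, for DSCs. Adamtsl5, a fibrillin-binding member, had 2089, 1340, 3056 and 3255 counts, with log2 changes of -0.60 and -0.17. The log2 change was -0.73 and 1.31 for Adamtsl1 and -0.71 and -0.14 for Adamtsl4, another fibrillin-binding member that is linked to lens dislocation.

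The ADAMs of neural adhesion lack catalytic activity and bind LGI proteins at synapses and along myelinated nerves. Adam23 had 393 counts at passage 3 and 935 at passage 9 in DPCs, and 3036 and 2640 in DSCs at those passages. Its log2 change was 1.28 (1.12 to 1.46) in DPCs and -0.47 (-0.54 to -0.39) in DSCs. Adam22 had log2 changes of 0.68 and 1.24, and Adam11 of 1.01 and 1.37, although the deposited FPKM gave -0.16 for Adam11 in DPCs. The summed level of 6 Schwann cell markers was 12.1 and 3.65 CPM in low- and high-passage DPCs and 30.5 and 5.09 CPM in low- and high-passage DSCs, with Sox10, Cdh19 and Ngfr at 0 in both high-passage libraries. Adam23 was higher in high- than in low-passage DPCs, whereas the Schwann sum was lower, and in DSCs both were lower at passage 9. The part of Schwann cells in the values of these ADAMs was not tested.

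Testis-type ADAMs, which act mainly in sperm, were detected at low levels, from 0.04 to 2.55 FPKM. Adam1a had 31, 352, 62 and 149 counts and a log2 change of 3.46 (3.01 to 4.12) in DPCs and 0.98 (0.56 to 1.45) in DSCs. Adam1b had 6, 45, 9 and 32 counts and log2 changes of 2.61 (1.71 to 4.46) for DPCs and 1.38 (0.46 to 2.82) for DSCs. Both genes were higher at passage 9 in both cell types, and the Adam1b change in DPCs passed 4-fold in 5 of 7 processing alternatives. They lie 15.1 kb apart on chromosome 5 and their counts are uncertain. Adam1a shares 63.7% of its exonic bases with genes on the same strand, Gm42878 (113, 491, 69 and 145 counts) and Mapkapk5 (946, 1039, 1218 and 998 counts), and 32.4% of the 50-base windows of Adam1b also occur in other genes. Adam4, Adam5 and Adam32 had at most 70 counts in any library.

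A further question was how the cell types differed. At passage 3, 5 of 33 members were at least 4-fold higher in DSCs, beside 2.77% of tested genes, and 0 were higher in DPCs, beside 1.52%. The 5 became 3 under total counts or with a minimum of 100, 2 with a prior count of 10 and 1 with the deposited FPKM. At passage 9, 2 were higher in DSCs, beside 3.91%, and 1 in DPCs, beside 2.5%. The median log2 difference of DSCs over DPCs was 0.05 at passage 3 and 0.47 at passage 9, where all tested genes had 0.00 and 0.01. At passage 9, 22 members were higher in DSCs and 11 in DPCs, and the matching split of all tested genes is not given here. These contrasts use the same 4 libraries as the passage contrasts, so they are not independent of them. Over all 4 contrasts, 12 of 33 members were past 4-fold at least once, compared with 15.1% of tested genes.

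Adamtsl3 was called at both passages. Its log2 difference of DSCs over DPCs was 4.33 (4.14 to 4.54) at passage 3 and 2.86 (2.59 to 3.18) at passage 9. Adam23 was higher in DSCs by 2.90 (2.75 to 3.06) at passage 3 and 1.15 (1.04 to 1.26) at passage 9. Adam33 was higher by 2.04 (1.75 to 2.38) at passage 3 and 1.60 (1.36 to 1.86) at passage 9, and Adamts15 by 2.06 (1.52 to 2.81) and 1.54 (0.43 to 3.61). The passage 3 values of Adam33 and Adamts15 lie at the threshold, passing it in 5 of 8 and 4 of 7 processing alternatives. Adam23 passed in 7 of 8, with 1.90 as its lowest value.

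Adamts3 changed sides between the passages. At passage 3 it was at least 8.41-fold higher in DSCs, where 26 counts stood against 0, and at passage 9 its log2 difference was -2.97 (-3.56 to -2.56), where DPCs had 259 counts and DSCs 40. Adamts8 was at least 6.30-fold higher in DSCs at passage 9, where 24 counts stood against 0, and differed by 0.96 (0.45 to 1.54) at passage 3. Each of these calls that rest on a count of 0 passed 4-fold in 5 of 7 processing alternatives. Adam19, Adamts5, Adam12 and Adamts12 had log2 differences at passage 9 of 1.71, 1.30, 1.05 and 1.04, against -0.82, -0.60, 0.35 and -0.49 at passage 3. These genes were thus all higher in DSCs at high passage, while 3 of them were lower there at low passage. Adamts2 was lower in DSCs at both passages, with log2 differences of -0.83 and -1.54.

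**Figure D4:**
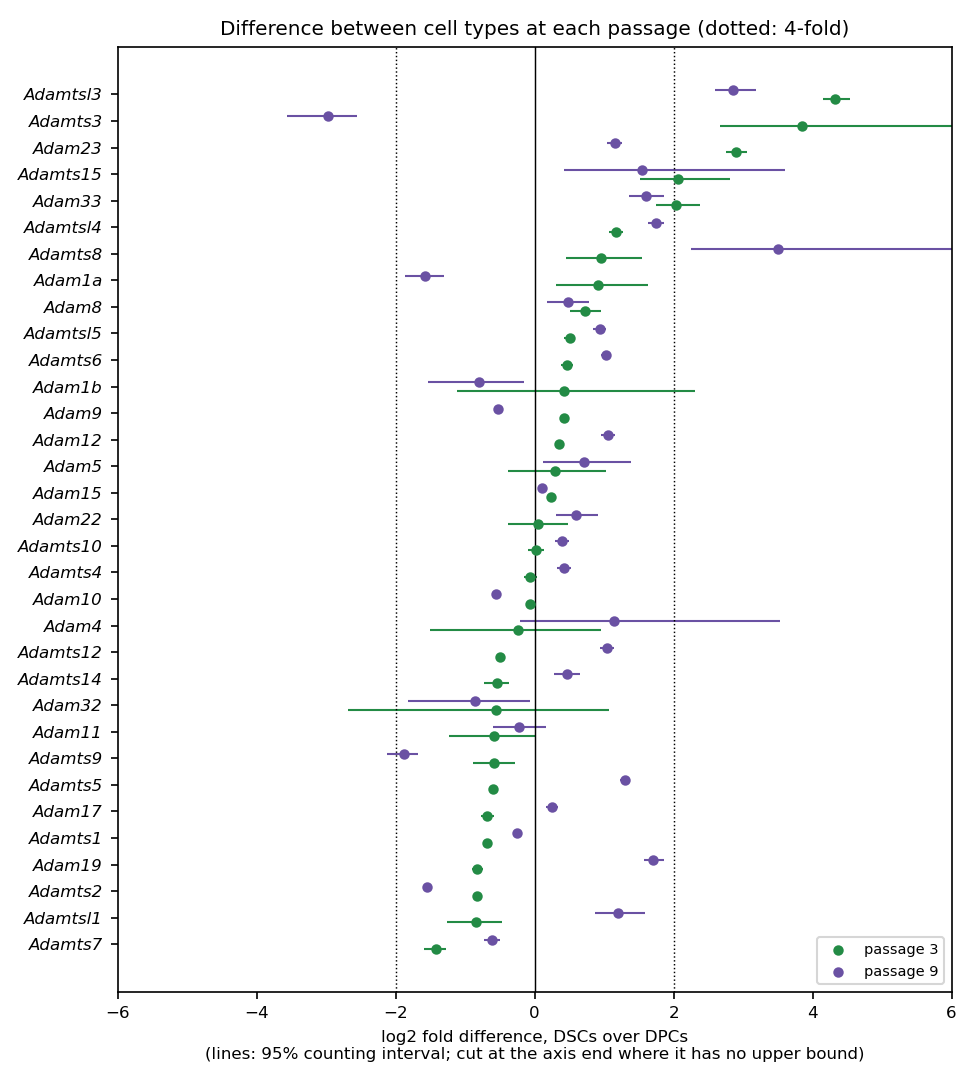
Difference of DSCs over DPCs for each expressed member, as log2 fold with its 95% counting interval, at passage 3 (green) and passage 9 (purple), ordered by the passage 3 value. Lines that reach the axis end have no upper bound, since the DPC library had 0 counts. Adamtsl3 is past the dotted 4-fold line at both passages, and Adamts3 is to the right at passage 3 and to the left at passage 9.

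The 14 members with neither a 4-fold difference nor a place among the 10 highest levels had log2 changes from -1.41 to 1.72 in DPCs and from -1.12 to 1.42 in DSCs. The counting interval excluded 0 for 31 of 33 members in DPCs and 27 in DSCs. If both mates of each read pair were counted, as halved counts would represent, 29 and 26 would still exclude 0. The matching share of all tested genes is not given here, so these counts do not set the members apart from other genes. The interval covers counting error alone. A model with additive terms for passage and cell type gave no member an adjusted p under 0.05 with edgeR's quasi-likelihood test, and 0% of tested genes passed. The smallest adjusted p among members was 0.188, and 11 of 33 members had an unadjusted p under 0.05, beside 16.9% of tested genes. The DESeq2 Wald test called 4 of 32 members, Adam12, Adamts12, Adamtsl3 and Adamts5, all lower at passage 9, beside 6.06% of 15760 genes. The single residual degree of freedom of this model reflects how far DPCs and DSCs differ in response.

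The members that were not expressed comprised 17 at 0 in every library, which allows up to 0.0836 CPM in the least deep library, and 7 with a few counts. Adamts20, a proteoglycanase that is needed for pigmentation of the coat, lay just under the minimum with a mean of 9.25 and had 6, 0, 31 and 0 counts. Adam4 lay just above it with a mean of 11. Adam28, Adamts13, Adamts18 and Adamts19 were among those at 0.

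Inhibitors, activating proteases, partners and substrates of the family were examined as a list of 58 genes, of which 52 were tested. In DPCs 6 were called higher and 7 lower with passage, where 5.58% and 4.36% of all tested genes were. In DSCs 2 were called higher and 5 lower, where 2.67% and 1.16% of tested genes were. The list's median log2 change was -0.03 in DPCs and 0.00 in DSCs. Timp3, the inhibitor of ADAM and ADAMTS proteases that is bound to the matrix, had 33707, 39569, 94456 and 71828 counts and changed by 0.27 and -0.66. Versican (Vcan), a substrate of the proteoglycanases, had 4134, 3447, 5272 and 2913 counts and changed by -0.23 and -1.12.

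Genes of this list past 4-fold in both cell types were Acan, Fbn2 and Lgi2, which fell, and Dll1, which rose. Aggrecan (Acan), the substrate that names the aggrecanases, had 108, 22, 1300 and 79 counts and log2 changes of -2.17 and -4.27. Fibrillin 2 (Fbn2) had 2119, 7, 1031 and 51 counts and changed by -7.87 and -4.54. Lgi2, a ligand of the catalytically inactive ADAMs, had 177, 16, 192 and 38 counts and changed by -3.29 and -2.53. Dll1, a Notch ligand that ADAMs can cleave, had 43, 225, 6 and 44 counts and changed by 2.37 and 2.28.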

How the data were processed

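RNA from 4 cultures was sequenced, with 1 library per group. According to the methods, mRNA was selected on poly-T beads and sequenced from paired ends after NEBNext Ultra library preparation, while the labels name a TruSeq kit. The submitters' processing notes name Bowtie 0.12.2 and builds mm8 and mm9. The deposited positions were identical to GENCODE M21 (GRCm38) for 51 of 57 members, so GRCm38 was used. The counting program, the use of strand and the counting of mates are not given in the sources used here. The authors deposited raw counts per gene, which are whole numbers without normalization, and FPKM values that the authors scaled for transcript length and depth.

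The minimum for testing was a mean of 10 raw counts. Counts were scaled with TMM in edgeR 4.0.16 (R 4.3.3, limma 3.58.1), and DESeq2 1.42.0 gave the alternative test. Adjusted p-values are Benjamini-Hochberg values over all tested genes. Each 95% interval came from the exact Clopper-Pearson limits on how reads of a gene divide between 2 libraries, and it covers counting error alone, as does the floor. The floor behind a 0 is 3 counts, or 6 if both mates were counted, which would halve the lower bounds. Scripts were tested on simulated data.

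The members, roles and gene lists were chosen with earlier results of these data known. Members past 4-fold in any contrast and the 10 with the highest mean FPKM are given library by library, the others by ranges or by their changes. Partner genes are named if past 4-fold in both cell types, with Timp3 and Vcan in any case, and markers and genes that share sequence with a member are named beside the values they bear on. The members without counts that are named were picked after their values were seen. The zinc-binding motif was searched in translated GENCODE M21 coding sequences, and its glycine position was opened to any residue after a first search. Alternatives were other scalings (DESeq2 size factors, total counts, upper quartile), prior counts of 0.5 and 10, minimums of 0 and 100, and log2 of the deposited FPKM plus 0.1.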

Additional observations from a re-analysis of the deposited data

Results flagged for a closer look

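For 6 members the change with passage ran in opposite directions in DPCs and DSCs, with both counting intervals on opposite sides of 0, as they did for 11.6% of all tested genes. The difference between the cell types was not tested, since each group had 1 library. The change in DPCs minus that in DSCs, on the log2 scale, was -2.05 for Adamtsl1 and -0.93 for Adam17, which were lower at passage 9 in DPCs and higher in DSCs. It was -1.01 for Adamts14, with the same directions. It was 1.75 for Adam23, 0.96 for Adam9 and 0.71 for Adamts2, which were higher at passage 9 in DPCs and lower in DSCs. None of the 6 was past 4-fold with passage in either cell type.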

How the results depend on the processing

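No paired analysis was possible because each group had 1 library and no replicate numbers to pair, beyond the additive model, in which the cell types act as the blocks of the passage comparison. Leaving out a replicate was not possible either. DESeq2 size factors and upper quartile scaling kept every count of called members within 1.5 times, and of 132 log2 values per setting 22 moved by more than their counting interval under total counts and 51 under the deposited FPKM. Of 19 calls past 4-fold, 10 held in every alternative. The members called lower in both cell types numbered 2 under total counts, 2 with a prior count of 0.5, 0 with a prior count of 10, 3 without a minimum, 0 with a minimum of 100 and 0 with FPKM. Members higher in DSCs at passage 3 numbered 3 under total counts, 2 with a prior count of 10, 3 with a minimum of 100 and 1 with FPKM. At passage 9 the members higher in DSCs numbered 1 with a prior count of 10, with a minimum of 100 and with FPKM, and those higher in DPCs 0 with a minimum of 100 and 2 with FPKM. Without a minimum, 8 of 40 members were lower with passage in DPCs, 2 were higher in DSCs and 3 were higher in DPCs than in DSCs at passage 3. With a minimum of 100, 1 member was higher in DPCs and 1 lower in DSCs, and FPKM also left 1 lower in DSCs. The median change in DPCs was -0.33 without a minimum, where 40 members were listed, and -0.27 with a minimum of 100, where 25 were. The additive model called 4 members with DESeq2. The cause of the shifts between settings was not tested. Setting Adamts3 and Adamts8 at their lower bounds left all 4 medians as they were. This could not have come out otherwise, because both genes stayed on the same side of each median. Depth limits the members under 100 counts on average, which were 8 of 33.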
